A study of Mus musculus with 6 samples.

Results

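The elastic fibre and microfibril genes Eln, Fbn1, Fbn2, Mfap2, Mfap4, Mfap5, Fbln1, Fbln2, Fbln5 and Emilin1 were followed in mouse embryonic fibroblasts with and without Rap1. They were chosen by name, as the 10 genes for the core and the main microfibrillar parts of the elastic fibre. A RefSeq accession on the array tied 13 of 41174 probes to them, with 2 probes each for Fbn1, Mfap2 and Fbln1 and 1 for each of the others. Of the 10 genes, 9 passed the filter on dim probes and entered a fit over 19657 features (genes, or unnamed probes); Fbln5 did not pass. The study set 3 arrays of Rap1 knockout (KO) fibroblasts beside 3 arrays of wild-type (WT) fibroblasts. The targeted Rap1 allele carries loxP sites around exon 3, which the recombinase Cre cuts out. All cells, KO and WT alike, had been infected with SV40 large T antigen and with Cre, and were grown in medium with puromycin, so no array shows cells free of these. The labels do not give the strain or the age of the embryos, whether the WT cells carry the unrecombined loxP allele, or whether replicates are separate cultures. The p-values below therefore measure only the spread between these samples, which may be technical.

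Elastic fibres give lung, skin and arteries their recoil. Cells secrete tropoelastin, the product of Eln, which lysyl oxidases crosslink onto a scaffold of microfibrils built mainly of the fibrillins. Microfibril-associated glycoproteins, fibulins and emilins bind this scaffold or the elastin core, and microfibrils also hold latent TGF-beta in the matrix. Fibroblasts are a main source of these proteins in connective tissue. Rap1, encoded by Terf2ip, binds telomeres as part of the shelterin complex through its partner TRF2.

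Values are log2 signals relative to the 75th percentile of each array, a scale on which signals of different probes cannot be set against each other. Between 25393 and 27633 of the 41174 probes were well above background on each array, and no spot was saturated. The Terf2ip probe was well above background on 0 of 3 KO arrays and on 3 of 3 WT arrays, with means of −8.37 ± 0.63 in KO and −1.74 ± 0.08 in WT (SD, n = 3 each). It was at least 37.7-fold lower in KO, a bound set by the dimmest signals still above background (limma adjusted p = 0.00794). WT arrays 2 and 3 were close to each other, with an SD of their log2 differences over all features of 0.25, where every other pair of arrays gave 0.83 to 1.25; repeat spots within an array had a median SD of 0.065 to 0.089. KO array 1 and WT array 1 lay on one slide and the other 4 arrays on the other, so values within each slide are given for each of these genes.

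None of the elastic fibre genes passed the test between KO and WT cells, and in none did the 3 KO arrays separate from the 3 WT arrays. With limma on 3 against 3 arrays, 0 of the 9 tested genes had an adjusted p under 0.05, where 0.0102% of all features did, and 0 of 9 had an unadjusted p under 0.05, where 10.3% of all features did. Groups that do not overlap were found for 0 of 9 with KO higher and 0 of 9 with KO lower, against 11.4% and 5.89% of all features. A difference of at least 2-fold was seen in 0 genes with KO higher and in 1, Mfap5, with KO lower, against 3.9% and 6.26% of all features. Mfap5 passed the filter through WT alone, the group where it was higher. Of the 9 differences 5 lay above 0 and 4 below, with a median of 0.014 beside 0.068 over all features.

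**Figure D1:**
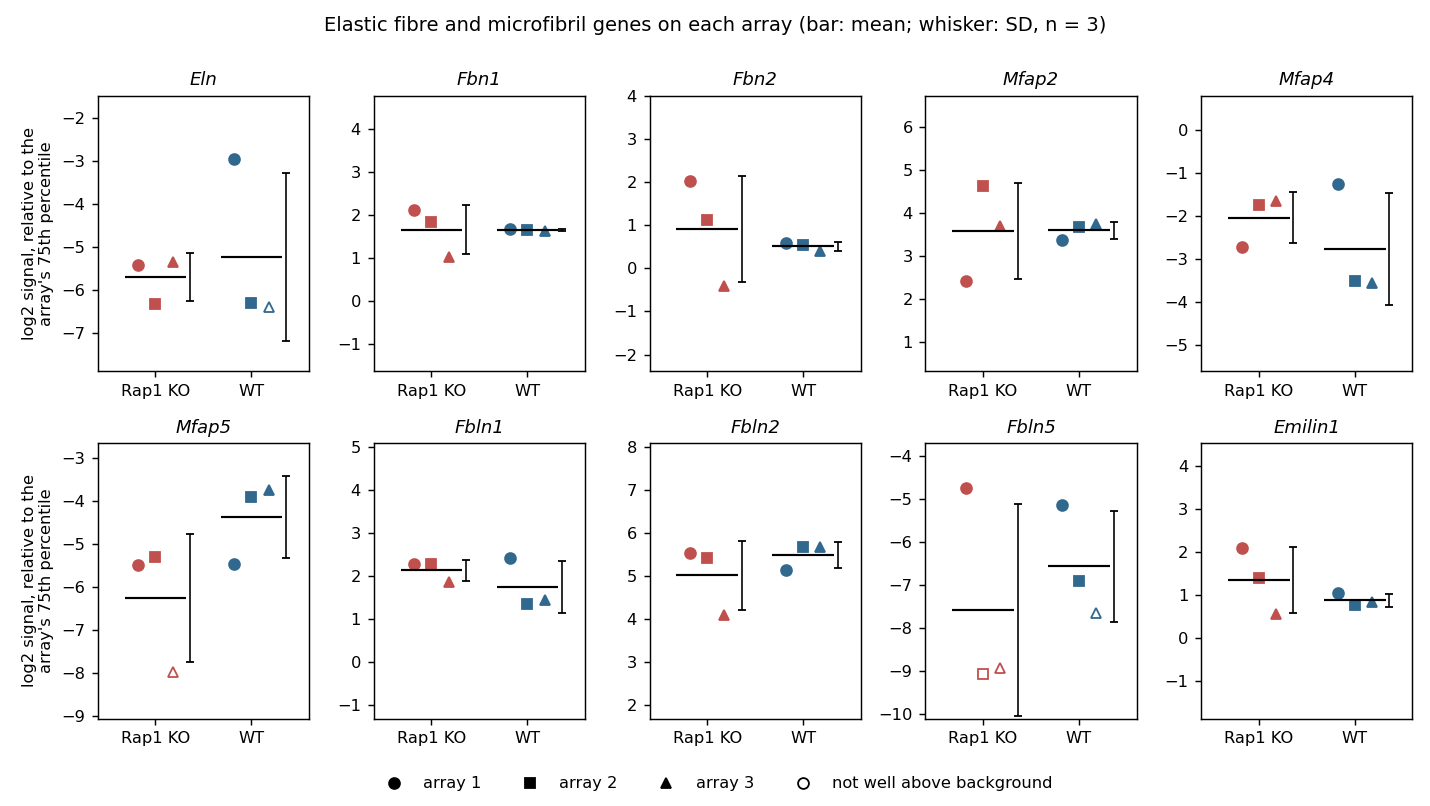
Log2 signal of the 9 tested genes and of Fbln5 on each KO array (left in each panel) and each WT array (right), relative to the array's 75th percentile; bars are means, whiskers SD (n = 3), marker shapes give the array number and open markers are not well above background. KO and WT values overlap in every panel, and WT array 1 stands apart from WT arrays 2 and 3 for Eln and Mfap4.

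Eln encodes tropoelastin, the monomer of the elastic core. Its single probe (A_52_P609972) read −5.41, −6.34 and −5.35 on KO arrays 1, 2 and 3, and −2.97, −6.32 and −6.41 on WT arrays 1, 2 and 3. One array held most of the range: WT array 1 was 3.39 above the mean of the other WT arrays, while all KO values lay between the WT extremes. The probe was dim, and on WT array 3 it was not well above background, so it passed the filter through KO alone. The KO mean was −5.70 ± 0.55 and the WT mean −5.23 ± 1.96 (SD, n = 3 each), a difference in limma of −0.47 (SE 0.93, 95% interval −2.68 to 1.75, adjusted p = 0.833). Within slides the difference had opposite signs, −2.44 on slide 1 and 0.52 on slide 2. Fewer Eln-expressing cells and less Eln RNA per cell cannot be told apart in such bulk RNA, here or for any gene below.

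The fibrillins Fbn1 and Fbn2 polymerise into the microfibril backbone, and Fbn2 is best known from embryonic tissue. Fbn1 (A_51_P467224) read 2.10, 1.84 and 1.03 on KO arrays 1, 2 and 3, and 1.67, 1.65 and 1.62 on the WT arrays. Fbn2 (A_51_P103850) read 2.03, 1.13 and −0.40 on the KO arrays, and 0.60, 0.54 and 0.40 on the WT arrays. Both genes took the same order in KO cells, with array 1 highest and array 3 lowest, and the KO values lay on either side of a narrow WT range. The spread of Fbn2 was 1.23 in KO and 0.098 in WT (SD, n = 3 each), and that of Fbn1 was 0.56 in KO and 0.029 in WT. A wider spread in KO than in WT was found for 6 of the 9 tested genes (66.7%) and for 71.4% of all features. The KO minus WT difference of Fbn1 was 0.014 (SE 0.32, 95% interval −0.74 to 0.77, adjusted p = 0.987), and its other probe gave −0.093. For Fbn2 it was 0.41 (SE 0.58, 95% interval −0.98 to 1.80, adjusted p = 0.762). On slide 1, which holds KO array 1, the differences were 0.43 for Fbn1 and 1.43 for Fbn2, and on slide 2 they were −0.19 and −0.11.

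Emilin1, a glycoprotein found where elastin meets the microfibrils and an inhibitor of TGF-beta maturation, had the order of the fibrillins. Its probe (A_51_P222359) read 2.09, 1.39 and 0.56 on KO arrays 1, 2 and 3, and 1.04, 0.76 and 0.84 on the WT arrays. KO arrays 1 and 2 were above every WT array and KO array 3 below every one. The difference was 0.47 (SE 0.40, 95% interval −0.48 to 1.42, adjusted p = 0.618), with 1.05 on slide 1 and 0.18 on slide 2. Without KO array 3, the KO arrays of Fbn1, Fbn2 and Emilin1 lay above all WT arrays, 3 of 9 genes, where 26.3% of all features did the same. KO array 3 also had the lowest value of the KO arrays for Mfap5, Fbln1 and Fbln2.

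Mfap2 and Mfap5 encode the microfibril-associated glycoproteins MAGP-1 and MAGP-2, which bind fibrillin. Mfap2 (A_51_P227502) read 2.42, 4.63 and 3.69 on KO arrays 1, 2 and 3, and 3.37, 3.67 and 3.73 on the WT arrays. The KO values spread to both sides of the WT values, with KO array 1 lowest and KO array 2 highest. The means, 3.58 ± 1.11 in KO and 3.59 ± 0.19 in WT (SD, n = 3 each), differed by −0.013 (SE 0.54, 95% interval −1.30 to 1.27, adjusted p = 0.994), and the other probe gave −0.037. Slide 1 gave −0.96 and slide 2 gave 0.46.

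Mfap5 had the smallest p of the set. It passed the filter through WT alone, with 2 of 3 KO arrays and 3 of 3 WT arrays well above background. Its probe (A_51_P363681) read −5.50, −5.30 and −7.97 on KO arrays 1, 2 and 3, and −5.46, −3.91 and −3.75 on WT arrays 1, 2 and 3. All KO arrays but array 2 were below all WT arrays; KO array 2 lay just above WT array 1, and on KO array 3 the probe was not well above background. The means were −6.25 ± 1.49 in KO and −4.37 ± 0.95 in WT (SD, n = 3 each). The difference of −1.88 (SE 0.81, 95% interval −3.82 to 0.053) had an adjusted p of 0.492 and an unadjusted p of 0.0549, both from limma. Nearly all of it came from slide 2, with −2.81, while the slide 1 pair differed by −0.034. It also differed with the processing. With normexp background correction of median signals and quantile normalisation it was −0.43, and in the deposited value table −0.44. With quantile normalisation alone it was −1.78. Which step sets its size was not tested.

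Mfap4, a fibrinogen-domain glycoprotein that binds elastin and fibrillin, was split by WT array 1. The probe (A_51_P195244) read −2.704, −1.74 and −1.64 on KO arrays 1, 2 and 3, and −1.25, −3.49 and −3.54 on the WT arrays. Every KO value lay above WT arrays 2 and 3 and below WT array 1. Over all arrays the difference was 0.73 (SE 0.67, 95% interval −0.86 to 2.33, adjusted p = 0.637). It was −1.45 on slide 1 and 1.83 on slide 2, and in a limma fit to slide 2 alone Mfap4 passed with an adjusted p of 0.0429, the only one of the 9 genes to do so where 1.54% of all features did. That fit compares 2 KO arrays with the near-alike WT arrays 2 and 3. When WT arrays 2 and 3 were averaged and counted as 1 sample, the difference was 0.36 (adjusted p = 0.946). Averaging gave WT array 1 more weight in the WT mean. In limma the averaged fit passed 0 of 19657 features, and even Terf2ip had an adjusted p of 0.0652. The p of the averaged fit therefore cannot decide on Mfap4.

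**Figure D2:**
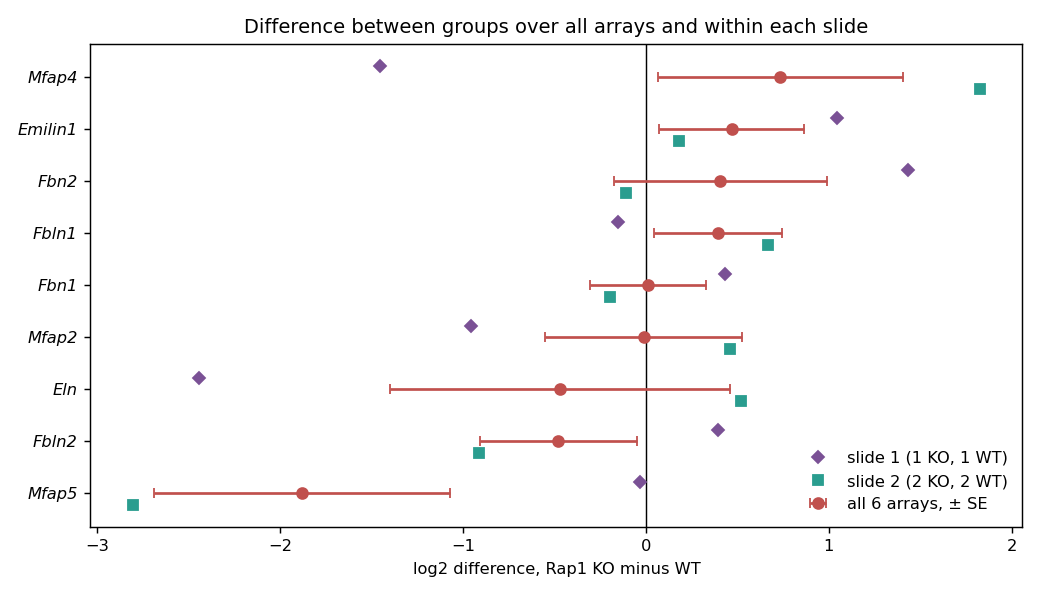
Log2 difference, KO minus WT, of the 9 tested genes over all 6 arrays (circles, ± SE) and within slide 1 (diamonds, 1 KO and 1 WT array) and slide 2 (squares, 2 KO and 2 WT arrays). For Eln, Fbn1, Fbn2, Mfap2, Mfap4, Fbln1 and Fbln2 the slides lie on opposite sides of 0.

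The fibulins link elastin, microfibrils and basement membranes. Fbln1 (A_52_P588483) read 2.27, 2.27 and 1.85 on KO arrays 1, 2 and 3, and 2.42, 1.33 and 1.44 on the WT arrays. Its order resembled that of Mfap4, with WT array 1 highest and WT arrays 2 and 3 lowest. The difference was 0.40 (SE 0.35, 95% interval −0.44 to 1.23, adjusted p = 0.627), and both probes of the gene gave 0.40. Fbln2 (A_52_P590535), a fibulin of vessel walls and basement membranes, read 5.53, 5.41 and 4.09 on KO arrays 1, 2 and 3, and 5.14, 5.66 and 5.67 on the WT arrays. KO array 3 was the lowest, and the other KO arrays lay between WT array 1 and WT arrays 2 and 3. The difference was −0.48 (SE 0.43, 95% interval −1.50 to 0.54, adjusted p = 0.633). Slide 1 and slide 2 gave −0.15 and 0.67 for Fbln1, and 0.39 and −0.91 for Fbln2.

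Fbln5, the fibulin that tethers tropoelastin to cells and microfibrils, sat at the limit of detection. Its probe (A_52_P278336) read −4.74, −9.07 and −8.93 on KO arrays 1, 2 and 3, and −5.13, −6.92 and −7.66 on the WT arrays. It was well above background on 1 of 3 KO arrays and on 2 of 3 WT arrays, in each group on array 1, and the groups overlapped. A fit without the filter gave −1.01 (SE 1.24, adjusted p = 0.893), with 0.39 on slide 1 and −1.71 on slide 2.

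The spread within groups was wide for these genes. Their median pooled SD was 0.80 beside 0.39 over all features. The KO arrays spanned at least 2-fold for 7 of 9 genes (77.8%) and for 37.8% of all features. WT array 1 was at least 2-fold from the mean of WT arrays 2 and 3 for 4 genes (44.4%), higher for Eln (3.39), Mfap4 (2.27) and Fbln1 (1.03) and lower for Mfap5 (−1.63), as it was for 16.7% of all features. WT arrays 2 and 3 differed by at most 0.16 in any of the 9. Without WT array 1, 4 of the 9 genes had groups that do not overlap: Mfap4 and Fbln1 with KO higher (26.4% of all features) and Mfap5 and Fbln2 with KO lower (19.3%). The same 4 genes, and no others, separated on slide 2 alone. Its arrays are a part of those left without WT array 1, so these 4 genes had to separate there. The share of all features that separated on slide 2 was not counted.

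**Figure D3:**
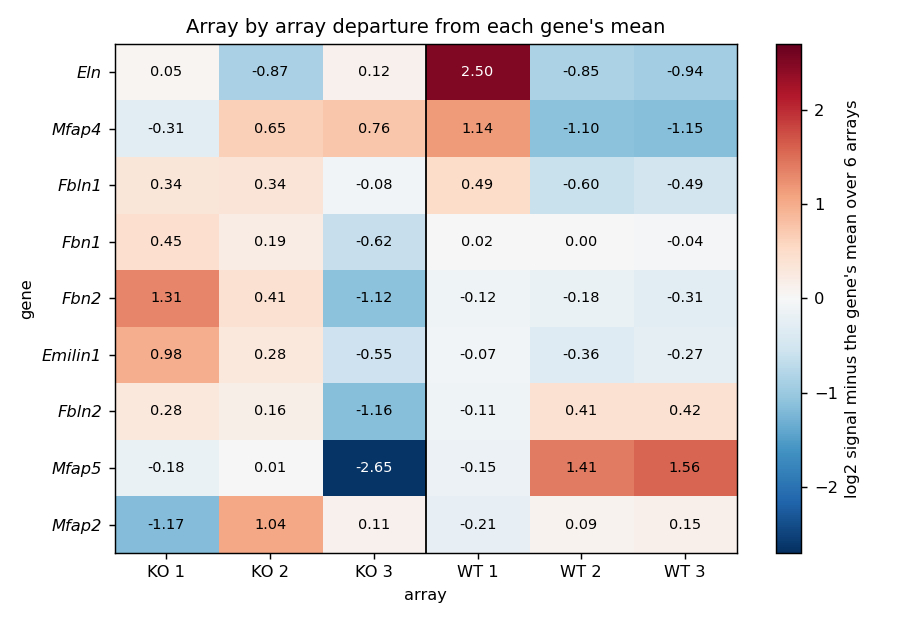
Heat map of the 9 tested genes by array, KO arrays left and WT arrays right, coloured and labelled with the log2 signal minus the gene's mean over the 6 arrays. KO array 3 is low for Fbn2, Mfap5, Fbln2 and Emilin1, and WT array 1 is high for Eln and Mfap4.

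Single arrays also set the sign of several differences. Leaving out 1 array at a time moved Eln between −1.06 and 0.66, Fbn1 between −0.21 and 0.33, Fbn2 between −0.15 and 1.07 and Mfap2 between −0.54 and 0.57. Mfap5 and Emilin1 kept their signs under every alternative that gave a value, Mfap5 with −2.81 to −0.034 and Emilin1 with 0.098 to 1.05.

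**Figure D4:**
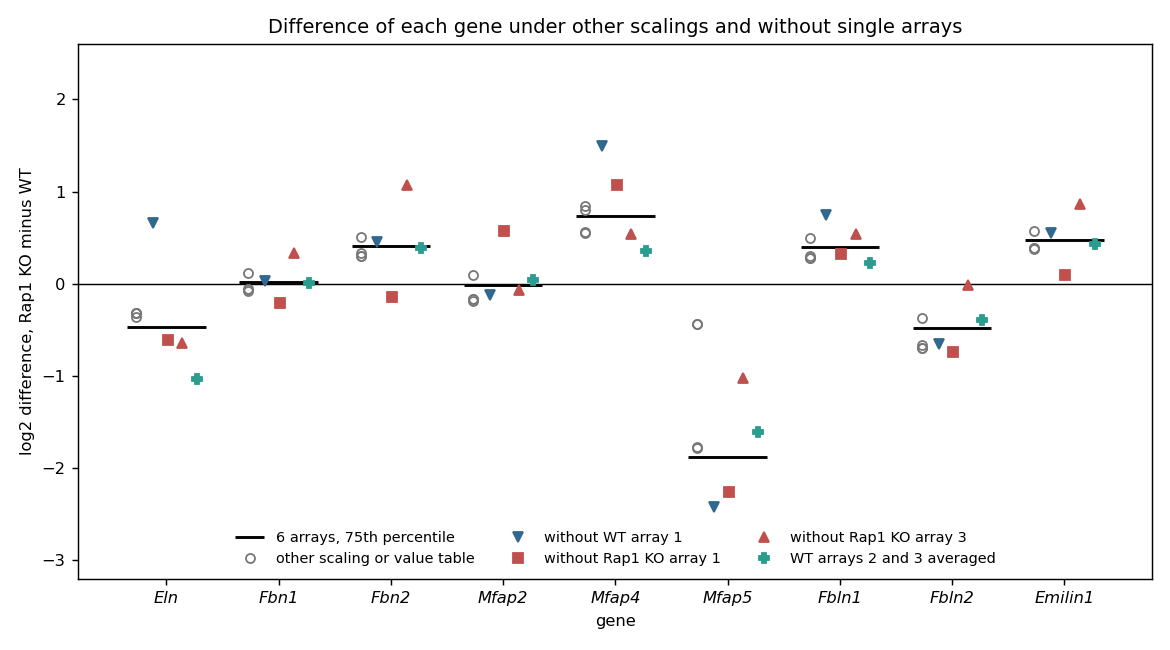
Log2 difference, KO minus WT, of the 9 tested genes over all 6 arrays (bar), under other scalings or in the deposited value table (open circles), and with single arrays left out or WT arrays 2 and 3 averaged (filled symbols). Mfap5 lies below 0 throughout and Emilin1 above 0, while Eln, Fbn1, Fbn2 and Mfap2 have values on both sides.

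Across the 6 arrays the genes fell into more than one pattern, described here with no test because WT arrays 2 and 3 are nearly alike. Fbn2 ran with Emilin1 (Pearson r = 0.96) and with Fbn1 (0.96), Mfap5 with Fbln2 (0.94), and Mfap4 with Fbln1 (0.80). Mfap4 and Mfap5 ran against each other (−0.72), and Eln had its closest match within the set in Mfap4 (0.67). Among 11248 named genes above background on all arrays, those most like Eln were Gas6 (r = 0.997), C4b (0.996) and Alpl (0.995). Each of them shared with Eln the high WT array 1: Gas6 read 1.33, 0.016 and 1.30 on KO arrays 1, 2 and 3, and 4.09, −0.10 and 0.022 on the WT arrays. The mean of the 9 gene-centred values was most like Rap2a (r = 0.976), Gmppb (0.974) and Tmem119 (0.970), which like that mean were lowest on KO array 3 and highest on WT array 1, except that Tmem119 was highest on KO array 2.

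Enzymes, binding partners, receptors and regulators of the fibre gave no gene past the limma threshold either, and their counts at an unadjusted p under 0.05 stand beside the 10.3% of all features. Among the crosslinking lysyl oxidases, 0 of 5 passed, 1 at an unadjusted p under 0.05, and the list median was −0.25. Lox itself differed by −0.34 (adjusted p = 0.676), with 0.44 on slide 1 and −0.74 on slide 2. Loxl4, with the smallest p of the family, read −1.14, −1.75 and −0.97 on KO arrays 1, 2 and 3, and −2.33, −2.12 and −2.12 on the WT arrays. Its KO arrays were all above its WT arrays, by 0.90 on average (SE 0.27, adjusted p = 0.469).

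Of 28 names listed as assembly partners, 18 genes were tested (Adamtsl6 is another name of Thsd4), 0 passed, 4 had an unadjusted p under 0.05 and the median was −0.31. The members with separated groups and a 2-fold difference were Thsd4, Efemp1 and Adamtsl4. Thsd4, a fibrillin-1-binding ADAMTS-like protein, was not well above background on any KO array and averaged −5.03 ± 0.94 on the WT arrays (SD, n = 3), at least 3.87-fold lower in KO (adjusted p = 0.239). Efemp1, or fibulin-3, read 3.12, 3.54 and 2.55 on KO arrays 1, 2 and 3, and 3.90, 6.01 and 5.98 on the WT arrays, a difference of −2.22 (SE 0.62, adjusted p = 0.441). In Efemp1 too the slides differed in size, with −0.77 on slide 1 and −2.95 on slide 2. Adamtsl4, another fibrillin-binding ADAMTS-like protein, read 0.14, −0.43 and −0.48 on the KO arrays and −1.44, −1.93 and −1.85 on the WT arrays. Its difference of 1.48 (SE 0.28, adjusted p = 0.241) was similar on slide 1 (1.57) and slide 2 (1.43). Efemp2, or fibulin-4, which brings lysyl oxidase to tropoelastin, differed by 0.28 (adjusted p = 0.681).

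Elastin-degrading enzymes and their inhibitors had 0 of 10 tested genes past the threshold, 1 at an unadjusted p under 0.05 and a median of 0.031. Cathepsin S, the elastase encoded by Ctss, had a fitted difference of −1.45 (SE 0.41, adjusted p = 0.442), but it was well above background on 1 of 3 KO arrays and on 3 of 3 WT arrays and passed the filter through WT alone. Receptors of elastin and microfibrils had 0 of 10, 3 at an unadjusted p under 0.05 and a median of 0.099. The integrin alpha 8 gene Itga8 read −5.43, −4.46 and −3.44 on KO arrays 1, 2 and 3, and −2.45, −0.50 and −0.58 on the WT arrays, a difference of −3.27 (SE 0.69, adjusted p = 0.311). Lgals3, the elastin-binding lectin galectin-3, differed by 1.08 (SE 0.29, adjusted p = 0.416). Regulators of elastin transcription had 0 of 11, 2 at an unadjusted p under 0.05 and a median of −0.35. Fgf2, a growth factor known to repress Eln in lung fibroblasts, had a fitted difference of −3.39 (SE 0.62, adjusted p = 0.239), but it too passed the filter through WT alone, with 1 of 3 KO arrays and 3 of 3 WT arrays well above background. The transcription factor gene Gata6 differed by −2.17 (SE 0.70, adjusted p = 0.474).

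**Figure D5:**
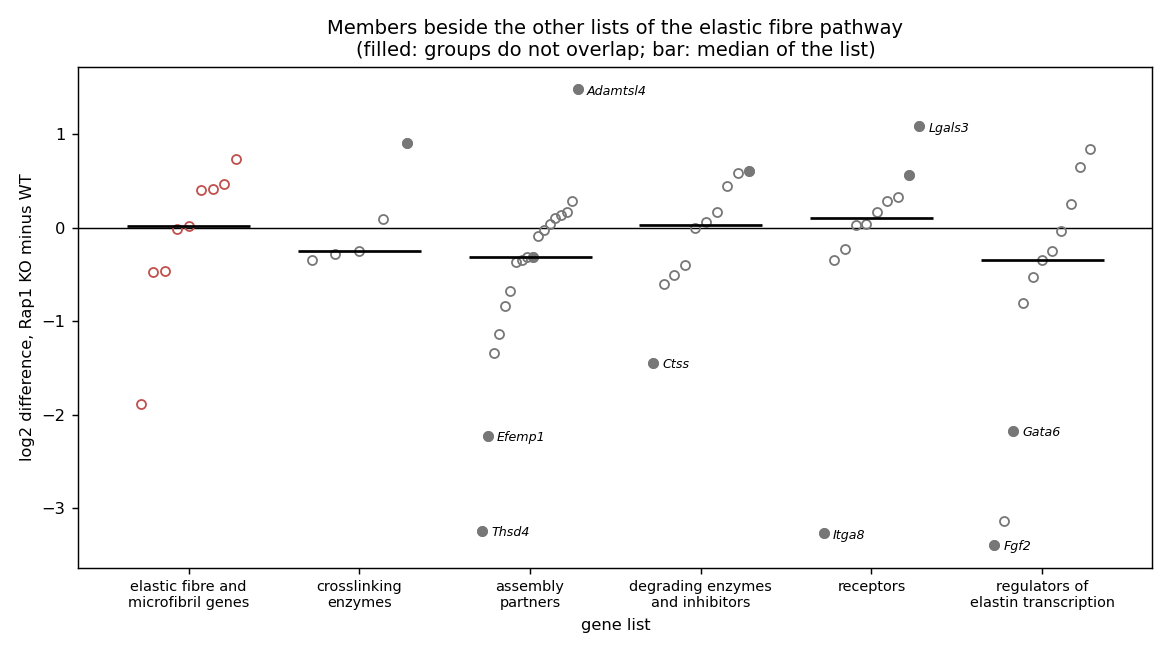
Log2 difference, KO minus WT, of every tested gene (points) in the set and in the 5 other lists of the elastic fibre pathway, with the list median as a bar; filled points have groups that do not overlap. No gene of the set is filled. The points of Thsd4 (0 of 3 KO arrays above background), Fgf2 and Ctss (1 of 3 each) are fitted values with no exact size. So are those of Mfap5 and Mycn (2 of 3 KO arrays each) and Eln (2 of 3 WT arrays).

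Fibroblast markers were detected, with 9 to 10 of 10 above background on each KO array and 10 of 10 on each WT array. Detection did not set them apart: 5 to 7 of 7 smooth muscle, 5 to 6 of 6 cartilage and 5 to 6 of 6 epithelial genes were also above background on each array. Of the 10 fibroblast genes 0 passed the limma threshold and 1 had an unadjusted p under 0.05, where 10.3% of all features did. Below 0 lay 7 of them and 8770 of 19657 features. At least 2-fold lower in KO were 5 of them and 6.26% of all features. The list median was −1.07, beside 0.068 over all features. The collagen gene Col1a1 averaged 6.52 ± 0.28 in KO and 6.37 ± 0.20 in WT (SD, n = 3 each). The receptor gene Pdgfra differed by −2.38 and the surface marker gene Thy1 by −2.64 (adjusted p = 0.474 and 0.488 in limma). In each, all KO arrays lay below all WT arrays, as they did for 5.89% of all features. KO array 1 stood apart: the small proteoglycan genes Dcn and Lum read −5.47 and −9.08 there, against 3.13 or more for Dcn and −4.05 or more for Lum on the WT arrays. Lum was not well above background on KO array 1. On that array Mfap2 and Mfap4 also had their lowest KO values and Fbn1, Fbn2, Fbln2 and Emilin1 their highest. The share of all features with their lowest or highest KO value there was not counted. Signals summed over the fibroblast list, in units of the 75th percentile of each array, ranged from 310 to 557 in KO and from 586 to 644 in WT. The brightest probes weigh most in such sums. For adipocyte markers the sums ranged from 2.12 to 6.66 in KO and from 18.2 to 21.0 in WT. Of the 4 adipocyte genes tested 3 lay below 0 and 1 above, and 0 passed the limma threshold. In limma 3 of the 4 had an unadjusted p under 0.05, where 10.3% of all features did. The gene above 0, Plin1, is among these 3. It was well above background on 0 of 3 WT arrays and passed the filter through KO alone. For epithelial markers the sums ranged from 4.07 to 13.05 in KO and from 2.23 to 3.16 in WT. The epithelial sums were mostly the keratin gene Krt18 (log2 2.41, 3.67 and 1.91 on KO arrays 1, 2 and 3, and 1.58, 0.80 and 1.03 on the WT arrays), while 3 of the 5 tested epithelial genes lay below 0, with a list median of −0.065. Smooth muscle markers summed to between 58.0 and 121 in KO and between 69.3 and 218 in WT, highest in WT array 1, and cartilage markers to between 4.73 and 18.7 in KO and between 8.38 and 10.7 in WT. Of 6 endothelial genes, 2 to 3 were above background on each KO array and 1 to 3 on each WT array, with sums of 0.045 to 0.24 in KO and 0.058 to 0.24 in WT. Of 5 macrophage and leukocyte genes on the array, 2 were above background on each KO array and 1 to 2 on each WT array, with sums of 0.59 to 1.40 in KO and 1.12 to 1.67 in WT. The defining endothelial genes Pecam1 and Cdh5 and the leukocyte gene Ptprc did not pass the filter on dim probes. Whether the make-up of the cultures has a part in the values of the elastic fibre genes was not tested.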

How the data were processed

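Total RNA was hybridised in 1 colour (Cy3) to Agilent mouse arrays, 1 array per sample. The deposited scanner files hold Cy3 intensities, background-subtracted, per the file headers, by Agilent's Feature Extraction software (version 10.5.1.1); the annotation build is mm8 and the files hold no gene-name column and no mean-signal column. The deposited value table holds log2 values, and the sources used here do not say how they were made; limma, with no version, stands in the submitters' processing notes. Its columns matched the scanner files, except that KO columns 1, 2 and 3 matched KO scanner files 2, 3 and 1, and their medians were 6.86 to 6.87; their centring is not known.

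Intensities were taken to log2 and each array's 75th percentile was subtracted. Control and outlier spots were left out and spots of a probe averaged. Probes well above background on all 3 arrays of a group were kept (25520 of 41174). RefSeq accessions named 23374 probes through a RefSeq gene table (GRCm38.p6); no coordinates are printed because the builds differ. Where several probes of a gene were kept, the one with the highest mean stood for it. KO and WT were compared with limma 3.58.1 (R 4.3.3, lmFit and eBayes, Benjamini-Hochberg threshold 0.05 over 19657 features). The script was tested on simulated data, 3 against 3 arrays with 200 features changed per run. It recovered 0.94% of changes of 1 log2 unit, 42.9% of those of 2 and 81.2% of those of 4. Most simulated 2-fold changes were thus missed. The simulated arrays were independent and had the SDs of all features (median 0.39), where the tested members had a median of 0.80. These shares therefore do not give the recovery for the members. Members, lists and alternatives were chosen with earlier results of these data known. Named are all members, Terf2ip, and in each other pathway list the genes with separated groups and a 2-fold difference or, failing that, the smallest p; Lox, Efemp2 and the marker genes were named outside this rule, after their values were seen. Alternatives were normexp (offset 50, on median signals) with quantile normalisation, quantile and median scaling, the value table, other filters, probe means, trended variance, a replicate block, slides, WT arrays 2 and 3 averaged, and each array left out. Whether replicate numbers pair the arrays could not be settled, and the main fit did not pair them. The number of arrays limits the precision.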

Additional observations from a re-analysis of the deposited data

How the results depend on the processing

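Over all features, 2 passed the threshold in the fit as reported. The count was 4 with the mean of a gene's probes, 302 on slide 2 alone, and 0 in each of 4 fits: the filter for probes above background on all arrays, which drops Terf2ip (1779 features at an unadjusted p under 0.05), the slide block (3483), WT arrays 2 and 3 averaged (692), and the replicate block (2354). Same-numbered arrays deviated with correlations of 0.0080, 0.054 and −0.081, and not every array correlated best with its own number. With 3 arrays per group, and WT arrays 2 and 3 nearly alike, these correlations cannot exclude a pairing. Leaving out 1 array gave counts of 0 to 64, with 64 without WT array 1. Of the 9 genes, Mfap4 alone passed anywhere, on slide 2 (1.83, adjusted p = 0.0429). The median of the differences was 0.014 as reported and ran from −0.15 without KO array 1 to 0.45 without WT array 1. Its sign was therefore not fixed. With the filter for all arrays, which left 7 genes, it was 0.40. The SD of the genes' median centred value over the 3 KO arrays was 0.48. Signs turned for Fbn1 with normexp (−0.061), quantile normalisation (−0.080), the deposited value table (−0.060), probe means (−0.040) and on slide 2 (−0.19), and for Mfap2 with median scaling (0.093), on slide 2 (0.46) and with WT arrays 2 and 3 averaged (0.042). On slide 2 they turned for Eln (0.52) and Fbn2 (−0.11), and on slide 1, a single pair of arrays with no test, for Mfap4 (−1.45), Fbln1 (−0.15) and Fbln2 (0.39). With 1 array left out, the ranges that cross 0 were −1.06 to 0.66 for Eln, −0.21 to 0.33 for Fbn1, −0.15 to 1.07 for Fbn2 and −0.54 to 0.57 for Mfap2. Median scaling shifted the median of all features by 0.11 and dropping the filter by −0.15, so the sign of Mfap2 under median scaling is relative to that shift. The cause of these changes was not tested. Eln, Mfap5 and Fbln5 were each below the background limit on at least 1 array, so the filter for all arrays gave no value for Eln or Mfap5. With normexp, Mfap5 was −0.43.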
